A study of Mus musculus with 12 samples.

Results

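The 35 genes described here are 19 integrin subunit genes and 16 genes of focal adhesion proteins, named by symbol from the 25203 genes of the table. They comprise 12 alpha subunits (Itga1 to Itga11 and Itgav), 7 beta subunits (Itgb1 and Itgb3 to Itgb8) and Vcl, Tln1, Tln2, Pxn, Zyx, Ilk, Lims1, Lims2, Parva, Fermt2, Ptk2, Tns1, Tns3, Bcar1, Trip6 and Lpp. All 35 were found. The study measured polyadenylated RNA in 12 libraries of primary mouse intestinal stromal cells in culture, labelled Mesenchyme, that came from the Pdgfra-low fraction marked by an H2B-GFP reporter. TGFB1_KO cultures were Tgfbr2KO cells given exogenous TGFβ1, and Vehicle_Tgfbr2KO cultures were Tgfbr2KO cells given vehicle. TGFB1 cultures were cells without that knockout given TGFβ1, and Vehicle cultures were such cells given vehicle. Each group had 3 libraries. The dose, the time of exposure, the age and sex of the animals, the part of Tgfbr2 deleted and the means of deletion were not given in the sources used here. The receptor-deficient cells were included to find effects of TGFβ1 that do not need this receptor.

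Integrins are paired receptors of an alpha and a beta chain that bind the extracellular matrix outside the cell and, through talin, kindlin and other adaptors, the actin cytoskeleton inside it. The alpha chain largely sets the ligand. Subunits alpha1, alpha2, alpha10 and alpha11 bind collagens, alpha3, alpha6 and alpha7 bind laminins, alpha5, alpha8 and alpha v recognise the RGD peptide of fibronectin and related proteins, and alpha4 and alpha9 bind VCAM1 among other ligands. Focal adhesions gather these receptors with scaffold proteins and kinases, and in fibroblasts they transmit tension. Integrins with alpha v also release TGFβ from its latent complex in the matrix.

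Promoter sequence could be matched for 26 of the 35 genes in the RefSeq table of build GRCm38.p6, which is not the build of the expression values. Of these, 4 are shown, because Itga5, Itgb1 and Fermt2 are abundant members whose transcripts were higher in TGFB1 than in Vehicle libraries, and because Vcl carries the same kind of motif as Fermt2 and its change did not pass the test. Each sequence is the 250 bases before the annotated start, 5′ to 3′ on the strand of the gene, and capitals mark motif matches.
Itga5, chr15:103366792-103367041, minus strand: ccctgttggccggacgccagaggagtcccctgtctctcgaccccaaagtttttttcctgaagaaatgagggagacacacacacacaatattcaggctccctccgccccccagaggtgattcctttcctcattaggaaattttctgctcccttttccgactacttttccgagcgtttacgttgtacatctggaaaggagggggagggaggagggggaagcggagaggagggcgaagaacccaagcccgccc
Itgb1, chr8:128685404-128685653, plus strand: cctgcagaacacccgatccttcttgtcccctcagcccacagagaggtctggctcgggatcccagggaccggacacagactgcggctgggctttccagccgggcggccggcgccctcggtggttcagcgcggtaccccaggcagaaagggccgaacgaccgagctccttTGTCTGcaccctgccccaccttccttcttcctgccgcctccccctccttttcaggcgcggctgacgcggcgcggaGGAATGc
Fermt2, chr14:45530066-45530315, minus strand: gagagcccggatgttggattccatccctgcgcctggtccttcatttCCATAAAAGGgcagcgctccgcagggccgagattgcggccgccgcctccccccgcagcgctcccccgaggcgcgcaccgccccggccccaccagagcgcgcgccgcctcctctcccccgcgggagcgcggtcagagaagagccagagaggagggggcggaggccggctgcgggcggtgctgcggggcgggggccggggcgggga
Vcl, chr14:20929148-20929397, plus strand: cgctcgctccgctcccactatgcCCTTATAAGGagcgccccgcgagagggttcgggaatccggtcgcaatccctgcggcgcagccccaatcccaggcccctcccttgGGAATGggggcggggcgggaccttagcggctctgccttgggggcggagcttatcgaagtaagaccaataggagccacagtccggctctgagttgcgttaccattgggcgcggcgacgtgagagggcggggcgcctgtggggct
The motifs searched on both strands were the AP-1 site TGANTCA, the TEAD site GGAATG, the SMAD box CAGACA and the CArG box, the site of serum response factor, none of which overlap in these windows. In Itgb1 the capitals are a SMAD box on the reverse strand at -82 to -77 and a TEAD site at -7 to -2. In Fermt2 they are a CArG box at -204 to -195, and in Vcl a CArG box at -227 to -218 and a TEAD site at -143 to -138. Itga5 had no match to any of the 4 motifs in its window. Over 32851 promoters of this length, 6.75% held the AP-1 site, 12.6% the TEAD site, 17.1% the SMAD box and 1.47% the CArG box. Among the 26 members with a promoter, 1 held the AP-1 site, 5 the TEAD site, 5 the SMAD box and 3 the CArG box, the third being Itgb6. Counted by promoter, like the percentages, these were 1, 5, 5 and 3 of the members' 33 promoters. A match is a description of the letters and not of binding.

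Expression values were deposited as FPKM, a level scaled by gene length and by the total of the library. Summed FPKM per library ran between 498669 and 569510, and relative depth, with Vehicle replicate 1 as 1, between 0.746 and 1.24. Both differed between TGFB1 and Vehicle libraries. The sums were 551457 to 569510 in TGFB1 and 503530 to 518802 in Vehicle, and the depths 0.746 to 0.798 and 0.963 to 1.04. The label Mesenchyme was checked against markers: 12 fibroblast marker genes summed to between 3087 and 10537 FPKM in every library and none was at 0, whereas 12 epithelial markers reached at most 67.9 FPKM and 8 endothelial markers at most 17.0 FPKM. Enteric glia and neuron markers summed to 178 to 288 FPKM, and 2 of these 10 genes, Tubb3 and Uchl1, were tested. Leukocyte markers summed to 17.0 to 715 FPKM. Tgfbr2 itself had 31.6, 38.0 and 62.4 FPKM in TGFB1_KO and 27.0, 35.2 and 41.9 in Vehicle_Tgfbr2KO libraries, against 56.5, 70.6 and 74.6 in TGFB1 and 48.0, 38.2 and 78.8 in Vehicle libraries. Exons outside a deleted part count towards such a value, so it does not check the knockout label. In these bulk cultures fewer cells of a type and less RNA per cell cannot be told apart.

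Integrin beta1 was the most abundant member in all 4 groups. Its mean level was 499 ± 62.1 FPKM in TGFB1_KO, 503 ± 38.5 in Vehicle_Tgfbr2KO, 787 ± 46.1 in TGFB1 and 486 ± 30.9 in Vehicle libraries (SD, n = 3 each). Zyx, a LIM protein of adhesions under tension, and Itga5, the fibronectin receptor chain, ranked next, with Itga5 ahead of Zyx only in the TGFB1 group. The first 10 places by mean level over the 12 libraries went to Itgb1, Zyx, Itga5, Ilk, Vcl, Fermt2, Tln1, Itgb5, Parva and Bcar1. Itgb3 was in place 12 in TGFB1 and place 21 in Vehicle libraries. At the other end, Itga10, Itgb4, Itgb6, Itgb7 and Itgb8 did not reach 1 FPKM in 3 libraries and were not tested, which left 30 of the 35. Itga4 passed that filter only through the libraries labelled as knockout, where it was high.

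**Figure D1:**
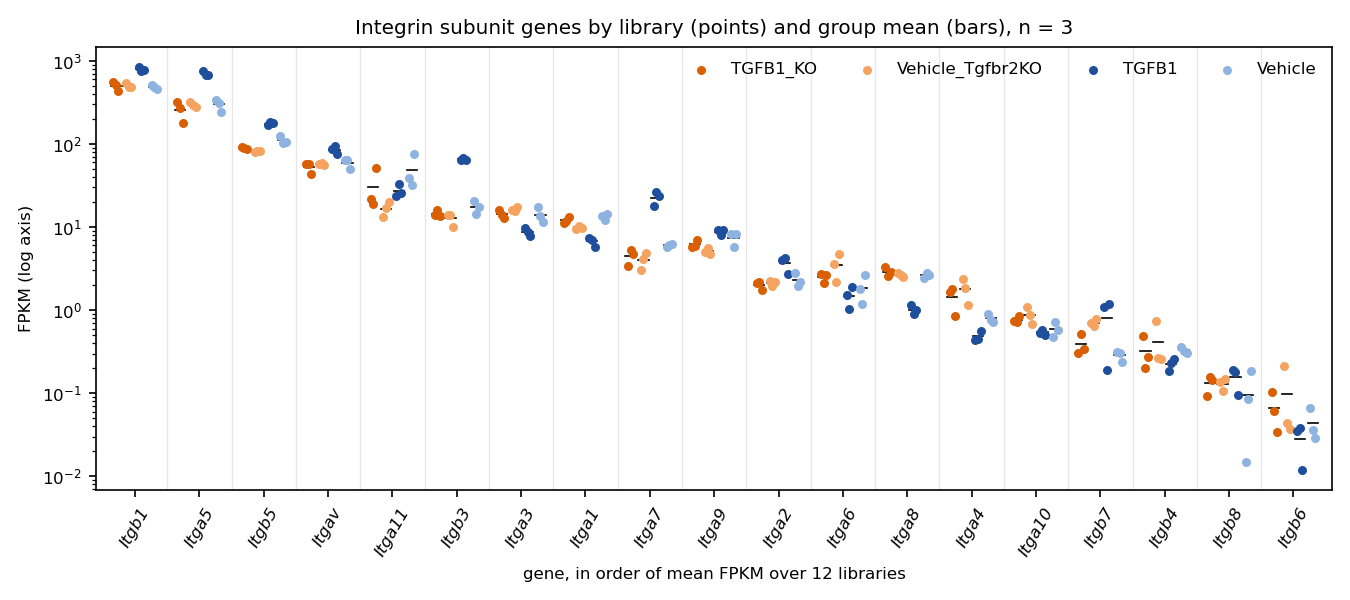
FPKM of the 19 integrin subunit genes (log axis) in each library, as points, with a bar at each group mean (n = 3), ordered by mean level. The TGFB1 points of Itgb1, Itga5, Itgb5, Itgav, Itgb3 and Itga7 lie above those of every other group, and those of Itga1, Itga3, Itga8 and Itga4 lie below.

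Among receptor-intact cells, the tested beta chains Itgb1, Itgb3 and Itgb5 were higher with TGFβ1, and alpha chains of the same ligand class went both ways. Of 3 tested genes in each class, 2 RGD-binding chains were higher and 1 lower, and among both the collagen-binding and the laminin-binding chains 1 was higher and 1 lower. Of the 30 tested members, 15 were higher and 5 lower in TGFB1 than in Vehicle libraries at a limma adjusted p under 0.05, and 10 did not pass. Over all 12641 tested genes, 31.9% passed in either direction, 17.3% higher and 14.6% lower. After upper-quartile scaling the split over all genes was 1353 higher and 2466 lower, against 2184 and 1849 without it, and 12 members were higher and 5 lower. The median log2 change was 0.21 over the members and 0.02 over all tested genes. With the replicate block again 15 members were higher and 5 lower, where 41.5% of all genes passed, 22.7% higher and 18.7% lower. Among alpha chains 4 rose and 3 fell, among beta chains all 3 that were tested rose, and among the adaptors and kinases 8 rose and 2 fell. Fold changes below are ratios of mean FPKM, and log2 changes are on the log2(FPKM + 1) scale with their standard error, a scale that understates the change of low genes.

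Itgb3, the beta chain of the vitronectin receptor, had 63.6, 68.5 and 64.2 FPKM in TGFB1 libraries, against 20.7, 14.3 and 17.3 FPKM in Vehicle libraries. Every TGFB1 library exceeded every Vehicle library, and the mean ratio was 3.75. Its log2 change of 1.86 ± 0.143 was the largest rise among the members (limma adjusted p = 1.37e-05). The other main partner of alpha v, Itgb5, had 168, 182 and 176 FPKM in TGFB1 and 124, 102 and 107 in Vehicle libraries. These did not overlap either, with a log2 change of 0.66 ± 0.0706 (limma adjusted p = 9.46e-05). Itgav itself had 87.3, 93.7 and 75.2 FPKM in TGFB1 and 64.7, 64.6 and 49.6 in Vehicle libraries, a smaller and non-overlapping difference of 0.52 ± 0.131 (limma adjusted p = 0.0131).

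Itga5, which pairs with beta1 as the classical fibronectin receptor, had 753, 681 and 679.9 FPKM in TGFB1 libraries, against 340.2, 313 and 243 FPKM in Vehicle libraries. All TGFB1 libraries were high, by a mean ratio of 2.36 and a log2 change of 1.25 ± 0.191 (limma adjusted p = 0.000873). Its partner Itgb1 had 838, 749 and 774 FPKM in TGFB1 and 515, 489 and 454 in Vehicle libraries. The ratio for the shared beta chain was lower, 1.62, with a log2 change of 0.69 ± 0.0957 (limma adjusted p = 0.000471). The third RGD-binding chain, Itga8, a receptor for nephronectin, went the other way. It had 1.15, 0.898 and 1.000 FPKM in TGFB1 libraries, against 2.46, 2.82 and 2.63 FPKM in Vehicle libraries, 2.60-fold lower with no overlap (log2 change -0.85 ± 0.0929, limma adjusted p = 0.000111).

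The laminin-binding chains divided. Itga7, known from muscle, had 17.7, 26.1 and 23.8 FPKM in TGFB1 libraries, against 5.78, 6.05 and 6.25 FPKM in Vehicle libraries. This 3.73-fold difference was close in size to that of Itgb3 (log2 change 1.73 ± 0.176, limma adjusted p = 7.16e-05). Itga3 had 9.63, 8.75 and 7.82 FPKM in TGFB1 and 17.5, 13.4 and 11.5 in Vehicle libraries. It was thus 1.62-fold lower without overlap (log2 change -0.62 ± 0.136, limma adjusted p = 0.00637). Itga6 averaged 1.49 ± 0.442 FPKM in TGFB1 and 1.87 ± 0.728 in Vehicle libraries (SD, n = 3 each), which overlapped (log2 change -0.19 ± 0.239, limma adjusted p = 0.592).

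Among collagen receptors, Itga1 had 7.33, 7.00 and 5.76 FPKM in TGFB1 libraries, against 13.7, 12.1 and 14.5 FPKM in Vehicle libraries. All TGFB1 libraries were low, by 2.00-fold, and the log2 change of -0.91 ± 0.0978 was the largest fall among called members on that scale, although Itga8 fell by a larger ratio of mean FPKM (limma adjusted p = 0.000103). Itga2 had 4.01, 4.25 and 2.72 FPKM in TGFB1 and 2.83, 1.96 and 2.15 in Vehicle libraries. It rose by 0.48 ± 0.143 (limma adjusted p = 0.0266), but it was the one called member whose groups overlapped. The call was lost without TGFB1 replicate 1 or 2 (0.0963 and 0.0952) or Vehicle replicate 2 or 3 (0.0924 and 0.0735). Upper-quartile scaling (0.0522) and a fit of the 2 groups alone (0.0733) also removed the call. Itga11, a collagen receptor of fibroblasts, was singled out after its values were seen, because Vehicle replicate 3 stood apart. It had 23.4, 32.5 and 25.9 FPKM in TGFB1 and 38.5, 31.9 and 76.6 in Vehicle libraries, and the log2 change of -0.73 ± 0.382 did not pass (limma adjusted p = 0.176). Without Vehicle replicate 3 the log2 change of Itga11 was -0.36.

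The VCAM1-binding chains did not pass the test. Itga9 averaged 8.78 ± 0.760 FPKM in TGFB1 and 7.41 ± 1.37 in Vehicle libraries (SD, n = 3 each), with a log2 change of 0.23 (limma adjusted p = 0.187). Itga4 was at or below 0.561 FPKM in TGFB1 and at or above 0.714 FPKM in Vehicle libraries, with a log2 change of -0.28 (limma adjusted p = 0.292).

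Because FPKM is per length, the makeup of the alpha chains can be read within a library. The 12 alpha genes summed to 871 ± 41.2 FPKM in TGFB1 and 456 ± 39.4 in Vehicle libraries, and the 7 beta genes to 1029 ± 37.2 in TGFB1 and 615 ± 42.1 in Vehicle libraries (SD, n = 3 each). Itga5 made up 82.3%, 78.8% and 81.5% of the alpha sum in TGFB1 libraries, against 68.5%, 68.9% and 58.1% in Vehicle libraries. The whole RGD-binding class held 90.8 ± 1.10% in TGFB1 and 78.8 ± 7.14% in Vehicle libraries. The collagen-binding class held 4.39 ± 0.666% in TGFB1 and 14.6 ± 6.77% in Vehicle libraries, and Itga11 alone held 3.14 ± 0.606% in TGFB1 and 11.0 ± 6.32% in Vehicle libraries. Although Itgav transcripts rose, their share was lower, 9.80 ± 0.944% in TGFB1 and 13.0 ± 1.18% in Vehicle libraries. Each of these differences in share had an exact two-sided permutation p of 0.1, the smallest that 3 against 3 allow, so none can pass 0.05. In knockout cultures the RGD-binding class held 79.9 ± 8.38% in TGFB1_KO and 85.5 ± 1.82% in Vehicle_Tgfbr2KO libraries (exact permutation p = 0.4).

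**Figure D2:**
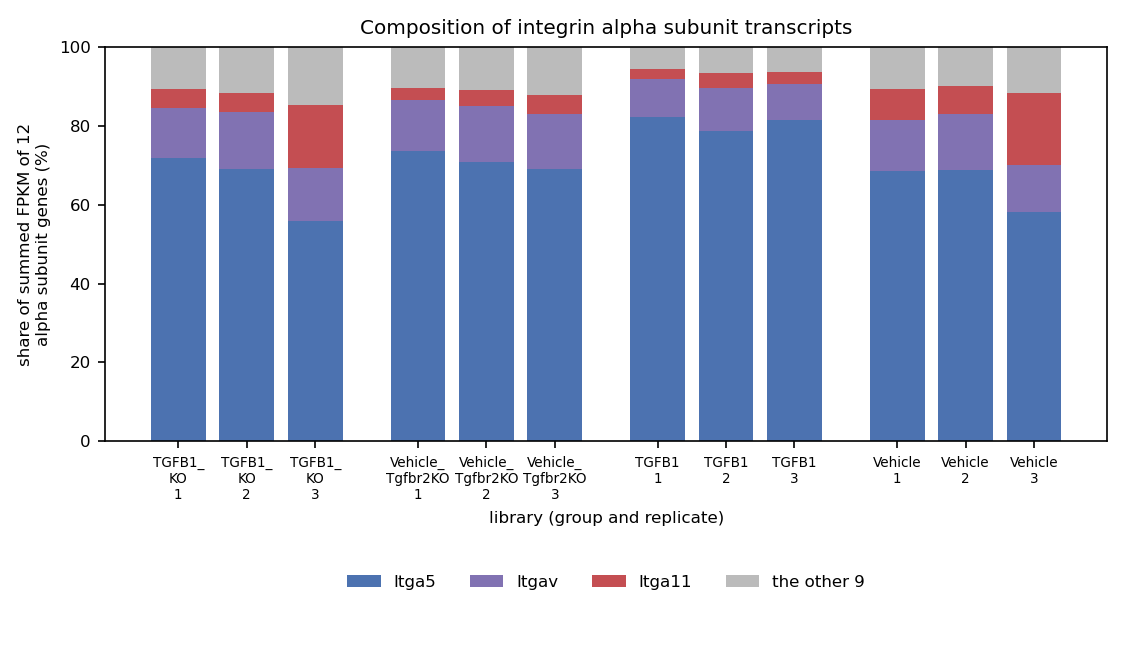
Share of the summed FPKM of 12 alpha subunit genes held by Itga5, Itgav, Itga11 and the other 9 (stacked bars, %), 1 bar per library. Itga5 holds 78.8% to 82.3% in TGFB1 libraries and 55.8% to 73.6% in the other libraries, and Itga11 holds most in replicate 3 of TGFB1_KO and of Vehicle.

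Inside the cell, the talin, kindlin and tensin genes that tie beta tails to actin moved by unlike amounts. Tln2, the less abundant talin, had 28.8, 23.8 and 23.2 FPKM in TGFB1 libraries, against 11.0, 9.64 and 11.1 FPKM in Vehicle libraries. It was 2.39-fold higher (log2 change 1.18 ± 0.116, limma adjusted p = 5.68e-05), with no overlap. Tln1, the main talin of these cultures, had 143, 151 and 141 FPKM in TGFB1 and 126, 127 and 106 in Vehicle libraries, only 1.21-fold higher (log2 change 0.28 ± 0.0935, limma adjusted p = 0.0442). The Tln1 call was lost without any one of Vehicle replicates 1 and 3 (0.0555 and 0.143) or TGFB1 replicates 1, 2 and 3 (0.0934, 0.123 and 0.0796). Upper-quartile scaling (0.168), median-ratio scaling (0.0524), testing every gene (0.0645) and no variance trend (0.0528) also removed it. Vcl, which binds talin and actin, had 186, 186 and 173 FPKM in TGFB1 and 171, 177 and 144 in Vehicle libraries. These overlapped, and the log2 change of 0.15 ± 0.125 did not pass (limma adjusted p = 0.385).

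Fermt2, the kindlin that activates integrins alongside talin, had 209, 198 and 208 FPKM in TGFB1 libraries, against 137, 128 and 126 FPKM in Vehicle libraries. It was 1.57-fold higher in a narrow spread (log2 change 0.65 ± 0.0710, limma adjusted p = 0.000114). The tensins, which also bind beta tails, parted. Tns1 had 68.1, 67.3 and 55.7 FPKM in TGFB1 and 37.9, 37.2 and 32.3 in Vehicle libraries, and rose (log2 change 0.81 ± 0.0929, limma adjusted p = 0.000153). Tns3 had 36.6, 34.4 and 28.5 FPKM in TGFB1 and 44.1, 48.6 and 39.1 in Vehicle libraries, and fell (log2 change -0.40 ± 0.116, limma adjusted p = 0.0249). Neither gene overlapped between the groups, though the call of Tns3 was lost without Vehicle replicate 1 or 2 (0.0625 and 0.0905) or TGFB1 replicate 3 (0.0950).

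In the complex of integrin-linked kinase, PINCH and parvin, which couples beta1 tails to actin, the 4 genes differed. Ilk had 322, 326 and 326 FPKM in TGFB1 libraries, against 229, 234 and 199 FPKM in Vehicle libraries. It was 1.47-fold higher without overlap (log2 change 0.56 ± 0.0984, limma adjusted p = 0.00197). Lims1, which encodes PINCH1, had 52.0, 51.6 and 53.3 FPKM in TGFB1 and 43.3, 42.8 and 50.5 in Vehicle libraries (log2 change 0.20 ± 0.0622, limma adjusted p = 0.0321). That small rise was not called without Vehicle replicate 1 or 2 (0.109 and 0.114). Nor was it called without any one of TGFB1 replicates 1, 2 and 3 (0.0778, 0.0615 and 0.0966). Upper-quartile scaling (0.330) and a fit of the 2 groups alone (0.0876) also removed the call. Parva, alpha-parvin, had 103, 104 and 102 FPKM in TGFB1 and 96.3, 102 and 94.7 in Vehicle libraries, and did not pass although the groups did not overlap (log2 change 0.08 ± 0.0472, limma adjusted p = 0.220). Lims2, PINCH2, overlapped, with means of 49.2 ± 5.20 FPKM in TGFB1 and 54.0 ± 4.67 in Vehicle libraries (SD, n = 3 each).

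Of the signalling members, Ptk2, focal adhesion kinase, had 36.7, 34.6 and 35.2 FPKM in TGFB1 libraries, against 27.3, 27.8 and 24.8 FPKM in Vehicle libraries (log2 change 0.40 ± 0.0749, limma adjusted p = 0.00267). Paxillin, Pxn, a scaffold that this kinase phosphorylates, had 37.3, 36.6 and 35.3 FPKM in TGFB1 and 29.9, 26.4 and 22.8 in Vehicle libraries (log2 change 0.46 ± 0.109, limma adjusted p = 0.00929). Both were higher in all TGFB1 libraries than in any Vehicle library. Bcar1, the adaptor p130Cas, averaged 84.2 ± 6.65 FPKM in TGFB1 and 76.7 ± 14.7 in Vehicle libraries (SD, n = 3 each) and overlapped (log2 change 0.15, limma adjusted p = 0.614).

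None of the zyxin family was called higher. Zyx had 464, 474 and 455 FPKM in TGFB1 libraries, against 433, 443 and 345 FPKM in Vehicle libraries, where replicate 3 was low. The groups did not overlap, but the log2 change of 0.20 ± 0.108 did not pass (limma adjusted p = 0.191). Trip6 had 42.9, 49.6 and 46.9 FPKM in TGFB1 and 55.6, 57.3 and 51.5 in Vehicle libraries, a fall of 0.24 ± 0.0764 (limma adjusted p = 0.0392). That call was lost without Vehicle replicate 1 or 2 (0.0995 and 0.122) or TGFB1 replicate 1 or 3 (0.146 and 0.0842). Testing every gene (0.0509) and a fit of the 2 groups alone (0.0546) also removed it. Lpp averaged 60.1 ± 7.65 FPKM in TGFB1 and 58.1 ± 6.80 in Vehicle libraries (SD, n = 3 each), with overlap.

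**Figure D3:**
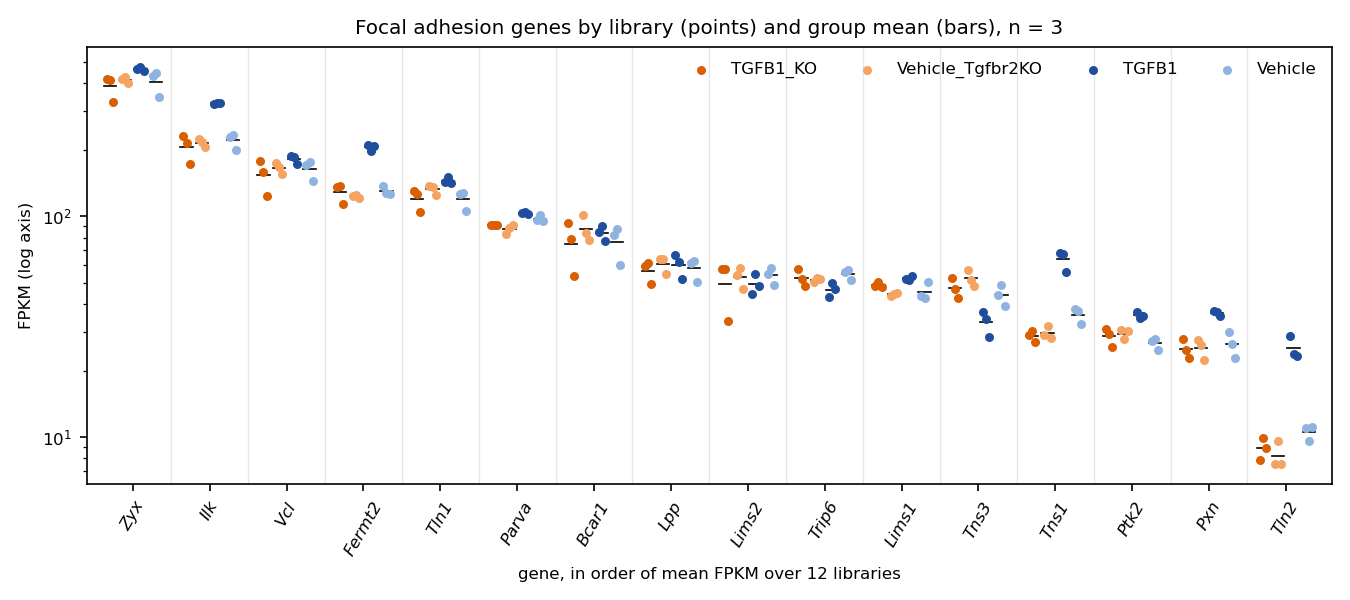
FPKM of the 16 focal adhesion genes (log axis) in each library, as points, with a bar at each group mean (n = 3), ordered by mean level. TGFB1 libraries stand above the other groups for Ilk, Fermt2, Tns1, Ptk2, Pxn and Tln2 and below them for Tns3. They are also above, by narrow margins, for Zyx, Tln1, Lims1 and Parva, while Vcl, Bcar1, Lpp, Lims2 and Trip6 overlap with other groups.

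Smooth muscle and pericyte markers moved in part with this comparison. Their 10 genes, none at 0 in any library, summed to between 8305 and 9380 FPKM in TGFB1 and between 5192 and 6431 FPKM in Vehicle libraries, and 9 of the 10 reached 1 FPKM in every TGFB1 library. Of these 10 genes 5 were higher in limma, Tagln, Cnn1, Actg2, Mcam and Cspg4, and Notch3 was lower. The other 4, Acta2, Myh11, Des and Rgs5, were not called. The median log2 change of the 10 genes was 0.48. Over all tested genes 17.3% were higher and 14.6% lower. The 12 fibroblast markers summed to between 8503 and 9450 FPKM in TGFB1 and between 5922 and 10537 FPKM in Vehicle libraries, with a median log2 change of -0.73. Vim was higher, 4 were lower, Pdgfra, Fbln1, Col6a1 and Col6a2, and the other 7 were not called. Pdgfra, whose reporter names the cells, averaged 15.2 ± 4.01 FPKM in TGFB1 and 142 ± 20.7 in Vehicle libraries (SD, n = 3 each), with a log2 change of -3.16 (limma adjusted p = 0.000197). Of the 2 tested glia and neuron markers, Uchl1 was higher, by a log2 change of 1.35. The part of these markers in the results was not tested.

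The 5 members too low to test are known mainly from epithelium, leukocytes or cartilage, apart from Itgb8. Itga10 was at most 0.572 FPKM in TGFB1 and 0.716 in Vehicle libraries, and Itgb8, which with alpha v activates latent TGFβ, at most 0.188 FPKM in both. Itgb7, a leukocyte chain, had 1.08, 0.188 and 1.17 FPKM in TGFB1 libraries, against 0.316, 0.302 and 0.237 in Vehicle libraries. Replicates 1 and 3 of TGFB1 were high. In the same TGFB1 libraries the leukocyte gene Ptprc had 1.19, 0.0686 and 1.61 FPKM and Itgax 1.87, 0.151 and 3.45 FPKM. The 12 leukocyte markers summed to 295, 17.0 and 389 FPKM there. In Vehicle libraries they summed to more, 472, 40.1 and 715 FPKM, although Itgb7 was at most 0.316 FPKM. No leukocyte marker was at 0 in any Vehicle library, and their part was not tested. Itgb4, of hemidesmosomes, and Itgb6, of epithelium, were highest in Vehicle_Tgfbr2KO replicate 1, at 0.730 and 0.210 FPKM, where the epithelial keratin Krt8 had 25.8 FPKM against 0 and 0.0542 in the other 2 libraries of that group. The 12 epithelial markers summed to between 9.19 and 67.9 FPKM in Vehicle_Tgfbr2KO libraries, with up to 3 of them at 0, and their part was not tested either.

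In Tgfbr2KO cells none of these differences was detected. Of the 30 tested members, 0 were called between TGFB1_KO and Vehicle_Tgfbr2KO libraries by limma, as were 0% of all 12641 genes, and 1 member, Itga1, had an unadjusted p under 0.05. Over all genes 748, or 5.92%, had an unadjusted p under 0.05, and the smallest adjusted p among members was 0.738. The members' median log2 change was -0.04. A block for the replicate number within each genotype left the count at 0, with 7 members and 15.6% of all genes at an unadjusted p under 0.05.

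Itgb3 had 13.9, 16.2 and 13.4 FPKM in TGFB1_KO libraries, against 14.0, 13.9 and 10.1 FPKM in Vehicle_Tgfbr2KO libraries. The log2 change was 0.19, with a 95% interval of -0.13 to 0.51 that excludes the 1.86 of the intact cells. Itga7 had 3.37, 5.30 and 4.71 FPKM in TGFB1_KO and 3.08, 4.10 and 4.84 in Vehicle_Tgfbr2KO libraries, with overlap. Itgb1 had 556, 507 and 433 FPKM in TGFB1_KO and 547, 477 and 485 in Vehicle_Tgfbr2KO libraries, with an interval of -0.23 to 0.20. For Itga5, 317, 274 and 178 FPKM in TGFB1_KO stood against 322, 294 and 275 FPKM in Vehicle_Tgfbr2KO libraries, where replicate 3 of TGFB1_KO was low. Its interval ran from -0.67 to 0.17, wide but below the lower bound of 0.82 in intact cells. Talin Tln2 had 7.90, 9.91 and 8.91 FPKM in TGFB1_KO and 7.56, 9.58 and 7.51 in Vehicle_Tgfbr2KO libraries, and tensin Tns1 29.1, 30.3 and 26.8 in TGFB1_KO and 28.9, 31.7 and 27.9 in Vehicle_Tgfbr2KO libraries. Both overlapped.

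None of the genes that fell in intact cells was called here. Itga1 had 11.1, 11.8 and 13.4 FPKM in TGFB1_KO libraries, against 9.45, 10.4 and 9.85 FPKM in Vehicle_Tgfbr2KO libraries. The libraries did not overlap and lay in the direction opposite to that of intact cells, with a log2 change of 0.26 ± 0.0978 and an unadjusted p of 0.0222 in limma that was 0.738 after adjustment. Itga8 had 3.28, 2.55 and 2.85 FPKM in TGFB1_KO and 2.76, 2.66 and 2.51 in Vehicle_Tgfbr2KO libraries, with overlap. Itga11 had 21.6, 19.2 and 50.9 FPKM in TGFB1_KO and 13.2, 16.7 and 19.8 in Vehicle_Tgfbr2KO libraries. Its log2 change of 0.72 ± 0.382 was the widest of the members and rested on replicate 3, without which the log2 change of Itga11 was 0.30. In replicates 1, 2 and 3 the 12 fibroblast markers summed to 3973, 4836 and 8224 FPKM in TGFB1_KO and to 6731, 5922 and 10537 in Vehicle. Among TGFB1 libraries replicate 3 had the highest sum, 9450 FPKM, but replicate 2 the highest Itga11. The part of these markers in the Itga11 values was not tested. Over the other tested members the log2 change lay between -0.33 for Itga6 and the 0.26 of Itga1.

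**Figure D4:**
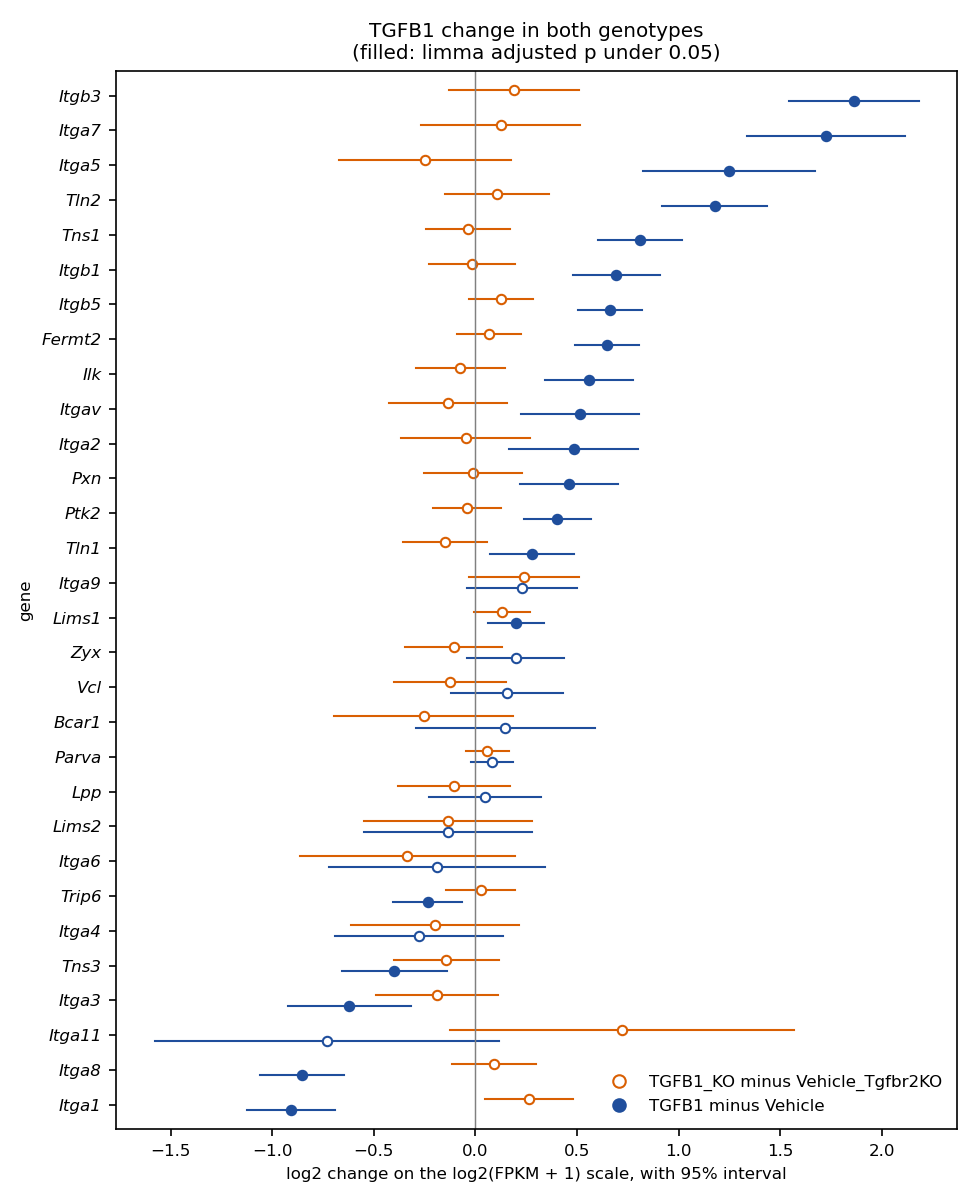
Log2 change with 95% interval of the 30 tested members (rows, ordered by the change in intact cells) for TGFB1_KO minus Vehicle_Tgfbr2KO and for TGFB1 minus Vehicle, filled where the limma adjusted p is under 0.05. The 20 filled points all belong to TGFB1 minus Vehicle, and the knockout changes gather around 0 from Itga6 at -0.33 to Itga11 at 0.72.

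The difference between the genotypes was tested as an interaction, the log2 change in Tgfbr2KO cells minus that in intact cells. It was below 0 for 12 members and above 0 for 2 at a limma adjusted p under 0.05, against 17.6% of all genes called in either direction, 9.26% below and 8.38% above 0. After upper-quartile scaling 784 genes lay below and 1332 above 0, against 1171 and 1059 without it. With the replicate block 13 were below and 3 above 0, where 28.9% of all genes passed, 15.4% below and 13.6% above. The median was -0.35 over the members and -0.02 over all genes. Itgb3 (-1.67 ± 0.203, limma adjusted p = 0.000561), Itga7 (-1.60 ± 0.249, 0.00224), Itga5 (-1.50 ± 0.270, 0.00478) and Tln2 (-1.07 ± 0.164, 0.00212) were furthest below 0. Tns1, Itgb1, Ilk, Fermt2, Itgb5, Ptk2, Itgav and Tln1 followed, between -0.85 and -0.43. Itga1 (1.17 ± 0.138, limma adjusted p = 0.000501) and Itga8 (0.94 ± 0.131, 0.00123) were above 0.

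For 6 of the members called in intact cells this test did not show a difference. Pxn missed the threshold (-0.47 ± 0.154, limma adjusted p = 0.0585) and passed with the replicate block within each genotype (0.0115), under which 28.1% of all genes passed, 14.4% below and 13.7% above 0. Itga2 (-0.53), Itga3 (0.43), Tns3 (0.26), Trip6 (0.26) and Lims1 (-0.07) were not called. Of these, Trip6 passed after upper-quartile scaling (limma adjusted p = 0.0422) and Itga2 without TGFB1 replicate 3 (0.0298). Itga11, not called in intact cells, had an interaction of 1.45 ± 0.540 with a limma adjusted p of 0.0911, which was 0.0480 with that block. The calls of Tln1 and Itgav were close to the threshold (limma adjusted p = 0.0496 and 0.0361), and both were lost after upper-quartile scaling (0.0957 and 0.0553) and with every gene tested (0.0727 and 0.0572). That of Tln1 was lost in every setting that left out 1 library other than TGFB1_KO replicate 1, at 0.0522 to 0.109. That of Itgav was lost without Vehicle replicate 3 (0.0634), TGFB1 replicate 1 or 2 (0.0827 and 0.0795), Vehicle_Tgfbr2KO replicate 1, 2 or 3 (0.0718, 0.0767 and 0.0568) or TGFB1_KO replicate 3 (0.0570).

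Between the vehicle-treated groups, 1 of 30 tested members differed. Itgb5 had 80.0, 82.5 and 82.3 FPKM in Vehicle_Tgfbr2KO libraries, against 124, 102 and 107 FPKM in Vehicle libraries, lower by 1.36-fold without overlap (log2 change -0.43 ± 0.0706, limma adjusted p = 0.0304). Over all tested genes 1.24% were called, 0.72% lower and 0.522% higher (91 and 66 genes, or 55 and 68 after upper-quartile scaling). The members' median log2 change was -0.03 with Itga4 included. The replicate block shares the numbers across genotypes, where pairing by number is uncertain. With it 15% of all genes were called, 8% lower and 7.01% higher, and 10 members. That count includes Itga4, whose call is not used because it passed the filter only through the knockout libraries, where it was high. The call of Itgb5 was lost without Vehicle replicate 1 or 3 (0.0786 and 0.0971) or any one of the Vehicle_Tgfbr2KO replicates 1, 2 and 3 (0.145, 0.0974 and 0.0617), and in a fit of the 2 groups alone (0.123). Without Vehicle replicate 2 a second member was called, Itga9 (-0.59, limma adjusted p = 0.0411).

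Itga4 passed the filter only through knockout libraries. Of the other 29 tested members, Itgb5 included, 10 had an unadjusted p under 0.05 in limma, against 21.9% of all genes, and in 10 the groups did not overlap, against 30.3% of all genes. Itga11 had the largest change, with 13.2, 16.7 and 19.8 FPKM in Vehicle_Tgfbr2KO libraries, against 38.5, 31.9 and 76.6 FPKM in Vehicle libraries. All Vehicle_Tgfbr2KO libraries were low, 2.95-fold by the means, but the spread was wide (log2 change -1.42 ± 0.382, limma adjusted p = 0.0919). Itga1 averaged 9.89 ± 0.464 FPKM in Vehicle_Tgfbr2KO and 13.4 ± 1.21 in Vehicle libraries (SD, n = 3 each; log2 change -0.40, limma adjusted p = 0.0739). Itgb3 averaged 12.7 ± 2.21 FPKM in Vehicle_Tgfbr2KO and 17.4 ± 3.24 in Vehicle libraries, and Itga7 4.01 ± 0.883 in Vehicle_Tgfbr2KO and 6.03 ± 0.236 in Vehicle libraries (SD, n = 3 each). Neither passed (limma adjusted p = 0.141 and 0.151). Itga4, given as a description with no test because of how it passed the filter, averaged 1.79 ± 0.591 FPKM in Vehicle_Tgfbr2KO and 0.797 ± 0.101 in Vehicle libraries (SD, n = 3 each). This comparison shares the Vehicle libraries with that of TGFB1 against Vehicle. The 12 fibroblast markers summed to between 3087 and 4524 FPKM in Vehicle_Tgfbr2KO and between 5922 and 10537 FPKM in Vehicle libraries, and their part in these values was not tested.

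**Figure D5:**
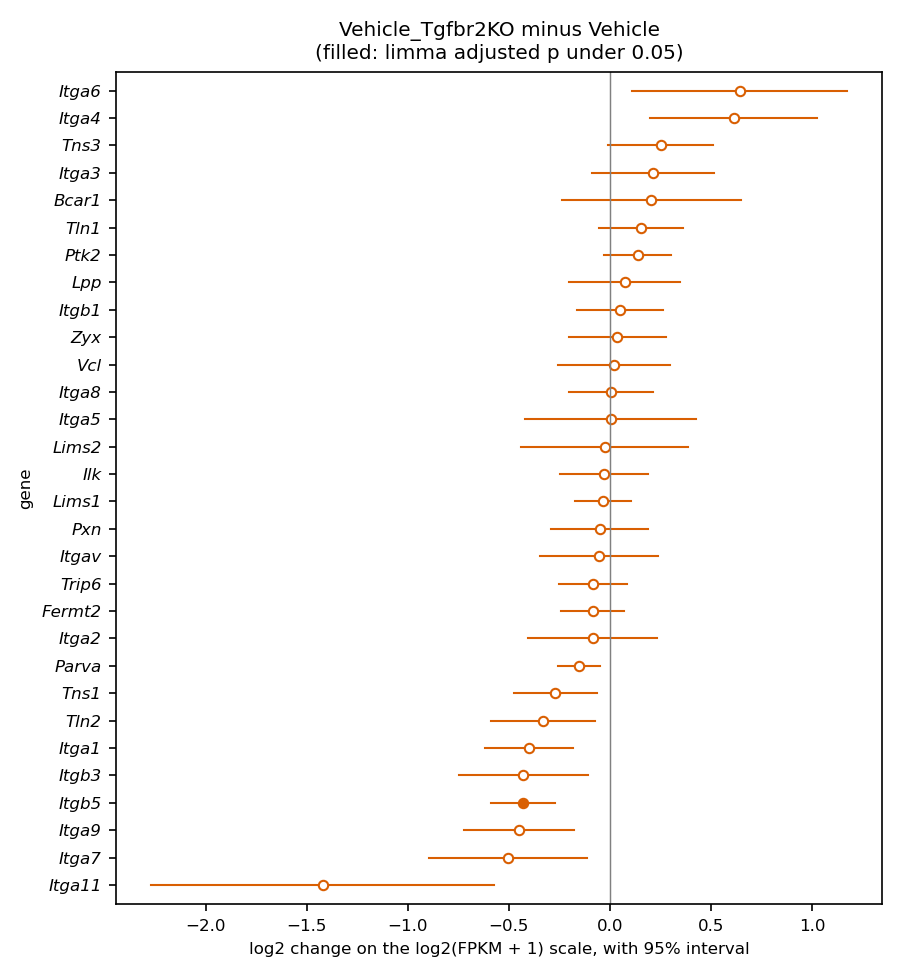
Log2 change with 95% interval of the 30 tested members for Vehicle_Tgfbr2KO minus Vehicle, filled where the limma adjusted p is under 0.05. Itga4 is drawn among them, but its test is not used because it passed the filter only through the knockout libraries. Itgb5 at -0.43 is the filled point, and Itga11 at -1.42 lies furthest from 0 with the widest interval.

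A list of 48 other focal adhesion genes, chosen with earlier results of these data known, gives the surrounding pathway. Of the 44 tested, 21 rose and 5 fell in TGFB1 against Vehicle libraries in limma, with a median log2 change of 0.23, where 17.3% of all genes rose and 14.6% fell. Csrp2, a LIM protein of smooth muscle, averaged 393 ± 35.7 FPKM in TGFB1 and 78.3 ± 12.3 in Vehicle libraries, a log2 change of 2.32 ± 0.163 (limma adjusted p = 8.61e-06). Pdlim1 (1.52), the FAK-related kinase Ptk2b (1.43) and Enah (1.12), which promotes actin assembly at adhesions, followed. Sorbs2 had the largest fall, with 0.981 ± 0.329 FPKM in TGFB1 and 11.8 ± 6.94 in Vehicle libraries (log2 change -2.56 ± 0.450, limma adjusted p = 0.00196). The adaptors Kank1 (-1.37), Tns2 (-0.88) and Sorbs3 (-0.87) also fell. In Tgfbr2KO cells TGFB1_KO libraries differed from Vehicle_Tgfbr2KO libraries in 0 of the 44 in limma. An unadjusted p under 0.05 was found for 4 of them, and for 5.92% of all genes. The interaction was called for 3 above and 15 below 0, where 8.38% of all genes lay above and 9.26% below. Between Vehicle_Tgfbr2KO and Vehicle libraries 4 were lower, where 0.72% of all genes were, Csrp2 (-1.22), Nedd9 (-0.74), Tgfb1i1 (-0.28) and Kank2 (-0.27), and leaving out 1 library left 0 to 2 of these calls.

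Ligands of integrins were counted in a list of 30 genes, also chosen with earlier results of these data known, of which 27 were tested. In TGFB1 against Vehicle libraries 10 rose and 3 fell in limma, with a median log2 change of 0.27, where 17.3% of all genes rose and 14.6% fell. With the replicate block within each genotype 11 rose and 7 fell, where 21.6% of all genes rose and 18.7% fell, 40.4% together. Fibronectin, Fn1, the main ligand of alpha5 beta1, averaged 4342 ± 194 FPKM in TGFB1 and 1518 ± 291 in Vehicle libraries (SD, n = 3 each; log2 change 1.53 ± 0.185, limma adjusted p = 0.000210). Ccn2 (1.61), Postn (1.58) and Tnc (1.51), secreted matricellular proteins, rose by like amounts. Vcam1, a ligand of alpha4 and alpha9, was lowest, with 10.5, 10.6 and 9.55 FPKM in TGFB1 libraries, against 53.2, 62.7 and 58.6 FPKM in Vehicle libraries (log2 change -2.40 ± 0.0781, limma adjusted p = 6.17e-08). The laminin chain Lama4 (-1.22) and the basement membrane protein Nid1 (-0.71) were lower as well. In Tgfbr2KO cells 0 of the 27 were called in limma between TGFB1_KO and Vehicle_Tgfbr2KO libraries. An unadjusted p under 0.05 was found for 1 of them, and for 5.92% of all genes. The interaction was called for 2 above and 5 below 0, where 8.38% of all genes lay above and 9.26% below, and for 5 above and 8 below 0 with that block, where 13.7% lay above and 14.4% below. Between Vehicle_Tgfbr2KO and Vehicle libraries Vcam1 was higher (0.44, limma adjusted p = 0.0375), where 0.522% of all genes were, a call kept without Vehicle replicate 2 and lost without each of the other 5 libraries.

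Of 8 other integrin subunit genes, mostly of leukocytes and platelets, 3 were tested. In TGFB1 against Vehicle libraries 0 were called by limma, with 1 at an unadjusted p under 0.05. Over all 12641 tested genes 31.9% were called and 5321 had an unadjusted p under 0.05. Their sum lay between 2.04 and 19.8 FPKM in TGFB1 and between 2.44 and 18.3 FPKM in Vehicle libraries.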

How the data were processed

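Polyadenylated RNA was measured in 12 libraries of cultured mouse mesenchyme, 3 for each of 4 groups taken from the titles. The authors deposited FPKM values per gene symbol for 25203 genes, of which 4702 are 0 throughout. The tools listed are kallisto 0.46.1 and DESeq2 1.40.1, with build mm9, per the submitters' processing notes. The steps from these tools to FPKM, and the scaling of libraries, are not given in the sources used here, so read depth is unknown and gene copies with shared sequence cannot be separated. Low values in steps of 1 read gave relative depth only.

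On log2(FPKM + 1), limma 3.58.1 in R 4.3.3 fitted 4 group means to all 12 libraries, leaving 8 residual degrees of freedom, with moderated variances that followed a trend with level. The 12641 genes that reached 1 FPKM in 3 or more libraries entered. The Benjamini-Hochberg adjustment ran over all of these, with a threshold of 0.05. Nothing in the labels ties libraries to different animals, and p-values reflect the spread between libraries alone. Standard errors of log2 changes had a median of 0.109, and ran between 0.0472 and 0.382 over the members. Shares of alpha chains were compared by exact permutation. Scripts were tested on simulated data. Figures and motif counts used Python 3.11.15, numpy 2.4.6, pandas 2.3.3 and matplotlib 3.10.9.

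The members and gene lists were chosen with earlier results of these data known. Values in every library are given for called members and for those with a group mean of at least 100 FPKM, and up to 4 called genes per direction and comparison, with at least 5 FPKM in a compared group, from each further list. Descriptions of the libraries carry 31, 121 and 123 in all 4 groups, with no word on what they stand for. Deviations from the group means correlated between same-numbered libraries at 0.391, 0.445 and 0.408 for TGFB1 and Vehicle and at 0.588, 0.227 and 0.529 for TGFB1_KO and Vehicle_Tgfbr2KO, but at 0.336, -0.0867 and 0.412 for Vehicle_Tgfbr2KO and Vehicle. Between TGFB1_KO and TGFB1 the correlations were 0.337, 0.00945 and 0.276. Pairing by number across genotypes is thus uncertain. The main fit used no pairing. The replicate block shared the numbers across all 4 groups, and the block within each genotype used them within a genotype only.

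Alternatives were the replicate block, other pseudocounts (0.1 and 0.5), testing every gene, a filter in all 12 libraries, upper-quartile and median-ratio scaling, no variance trend, only the compared groups, and leaving out each library. A block within each genotype was added after seeing the data.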

Additional observations from a re-analysis of the deposited data

Results flagged for a closer look

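The response to TGFβ1 differed between Tgfbr2KO and intact cells for 14 of the 30 tested members in the test of the difference itself. Over all tested genes 17.6% were called in that test, 9.26% below and 8.38% above 0. The values are the log2 change of TGFB1_KO against Vehicle_Tgfbr2KO minus that of TGFB1 against Vehicle, with the limma adjusted p. Below 0 were Itgb3 (-1.67, 0.000561), Itga7 (-1.60, 0.00224), Itga5 (-1.50, 0.00478), Tln2 (-1.07, 0.00212), Tns1 (-0.85, 0.00221), Itgb1 (-0.71, 0.00617), Itgav (-0.65, 0.0361), Ilk (-0.63, 0.0120), Fermt2 (-0.58, 0.00379), Itgb5 (-0.54, 0.00564), Ptk2 (-0.44, 0.0177) and Tln1 (-0.43, 0.0496). Above 0 were Itga1 (1.17, 0.000501) and Itga8 (0.94, 0.00123). All 14 were called in TGFB1 against Vehicle, and 0 of them in TGFB1_KO against Vehicle_Tgfbr2KO, where 0% of all genes were called. The difference contains the TGFB1 against Vehicle change, so these tests are not independent. Each group had 3 libraries, too few to look for a single outlying value.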

How the results depend on the processing

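Of the 20 members called in TGFB1 against Vehicle, 14 kept the call under every alternative, Itga8 kept it under all but the filter in all 12 libraries, where it was not tested, and Itga2, Tln1, Lims1, Tns3 and Trip6 lost it under at least 1. No called member changed sign. Leaving out 1 library gave 16 to 18 calls, 12 to 13 higher and 3 to 5 lower. Over all genes these settings gave 1582 to 1838 higher and 1325 to 1592 lower. Together they ran from 2907 of 12562 without TGFB1 replicate 1 to 3425 of 12553 without Vehicle replicate 3. Of the 14 interaction calls, 11 were kept under every alternative, that of Itga8 under all but the same filter, and Itgav and Tln1 lost theirs under at least 1. Without 1 library there were 12 to 15 calls, 2 above and 10 to 13 below 0. Over all genes 700 to 1144 then lay above and 730 to 1310 below 0. Together they ran from 1430 of 12562 without TGFB1 replicate 1 to 2454 of 12596 without TGFB1_KO replicate 1. The filter in all 12 libraries left 1 member above 0, since Itga8 was not tested, where 867 of 10732 genes lay above.

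With the replicate block, TGFB1 against Vehicle still gave 15 higher and 5 lower members, TGFB1_KO against Vehicle_Tgfbr2KO 0, and the interaction 3 above and 13 below 0. Over all genes the interaction then had 3658 calls, against 2230 without it. For Vehicle_Tgfbr2KO against Vehicle, where pairing by number is uncertain, the block gave 10 members, 3 higher and 7 lower, and 1897 genes. Without it there were 1 member and 157 genes. The 3 higher include Itga4, which passed the filter only through knockout libraries, so its call in this comparison is not used. Fitting only the compared groups gave 0 members and 0 genes there, no filter gave 71 genes and no variance trend 90. Leaving out 1 library gave 0 to 2 members there, with 0 to 86 genes. For the interaction, leaving out TGFB1 replicate 1 gave 1430 genes. In these cases the cause was not tested.

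Shares of alpha chains taken over log2(FPKM + 1) values differed from those on FPKM. In TGFB1 minus Vehicle the collagen-binding share changed by -3.38 points, the RGD-binding by 1.65, the VCAM1-binding by -0.25 and the laminin-binding by 1.98, against -1.04 on FPKM. In TGFB1_KO minus Vehicle_Tgfbr2KO the laminin-binding share changed by -1.13 and the VCAM1-binding by 0.040, and in Vehicle_Tgfbr2KO minus Vehicle the VCAM1-binding by 0.74, against -0.15 on FPKM, and the RGD-binding by 1.10. FPKM without counts gives no depth per value, and members under 1 FPKM were mostly not tested. In TGFB1_KO against Vehicle_Tgfbr2KO a pseudocount of 0.1 called 1 gene, not a member.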
